A study of Mus musculus with 6 samples.

Results

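The genes described here are the laminin chains and laminin receptors of the Schwann cell (SC): the 6 laminin chain genes Lama2, Lama4, Lama5, Lamb1, Lamb2 and Lamc1, and the 4 receptor genes Dag1, Itga6, Itga7 and Itgb4. They were chosen by name for what their products do, with earlier results of these data known. All 10 were among the 55401 genes of the count table, and all 10 were among the 22318 genes that passed the filter on low counts and were tested. Bulk RNA-seq was measured in 6 libraries of SCs grown from adult mouse dorsal root ganglia, 3 labelled WT and 3 labelled Plxnb1-/-. The Plxnb1-/- mice carry the allele Plxnb1 tm1Matl, a gene trap cassette inserted into the receptor gene Plxnb1, on a C57BL/6 background. The study's methods name WT and Plxnb1+/- littermates as controls, and the labels of the control libraries used here say WT. The allele is carried by every cell of the mouse and not by SCs alone. Cells of both genotypes were first put on poly-L-lysine and laminin, per the labels, and were kept in medium with 2 µM forskolin, 10 nM neuregulin and 10% fetal bovine serum, after depletion of fibroblasts with antibodies to Thy1. Cells of passages 3 to 5 were used, at a stated purity above 80%. Neither the labels nor the methods say whether the 3 libraries of a genotype came from separate animals, so p-values measure the spread between these libraries, which may be technical in part. The sex of the mice is not given in the labels.

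Laminins are cross-shaped proteins of the basement membrane, each built of an alpha, a beta and a gamma chain. SCs lay down a basement membrane around each axon-SC unit, and the loss of its laminins or of their receptors is known to impair the sorting and myelination of axons. SCs bind laminin through dystroglycan, encoded by Dag1, and through integrins whose alpha subunits are encoded by Itga6 and Itga7, the former paired with the products of Itgb1 or Itgb4.

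The libraries held 59252048 to 77280964 counts each. Levels are given as CPM, counts scaled to the library size by the TMM method, and the floor of detection, taken as 3 counts, was 0.0383 to 0.0512 CPM. This floor covers counting error only. The targeted gene Plxnb1 was at 61.7, 45.4 and 96.4 CPM in WT replicates 1, 2 and 3 and at 13.1, 16.6 and 18.5 CPM in Plxnb1-/- replicates 1, 2 and 3. Its log2 fold change was -2.08 (SE 0.25, edgeR adjusted p = 0.0449), and each genotype matched its label. 2 libraries stood apart, and whether this bears on the genes below was not tested. WT replicate 2 had the highest summed level of 8 fibroblast markers, 13467 CPM against 10163 to 11476 CPM in the other libraries. Most of that sum came from the collagen genes Col1a2 and Col3a1, at 6230 and 6129 CPM in WT replicate 2. Plxnb1-/- replicate 3 had 11.6 CPM of Xist, the RNA of the inactive X chromosome, against 218 to 260.0 CPM elsewhere, and 10850 counts on 4 genes of the Y chromosome. Those genes had 404 and 517 counts in Plxnb1-/- replicates 1 and 2 and 0 counts in every WT library. Plxnb1-/- replicate 3 was thus not a technical repeat of Plxnb1-/- replicates 1 and 2. RNA of the Y chromosome was thus present in every Plxnb1-/- library and in no WT library. Male cells and genotype therefore cannot be told apart here. Without Plxnb1-/- replicate 3 this concerns a small amount of RNA. Plxnb1-/- replicates 1 and 2 had 5.16 and 7.13 CPM on the 4 genes, against 156 CPM in Plxnb1-/- replicate 3. Their Xist was at 260.0 and 237 CPM, against 218 to 241 CPM in the WT libraries. The source of the Y chromosome RNA in Plxnb1-/- replicates 1 and 2 was not tested. Values without WT replicate 2 and Plxnb1-/- replicate 3 are given below. These 2 libraries were chosen as doubtful after the data had been seen.

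All 10 genes had a higher mean in Plxnb1-/- than in WT SCs, and none of the differences passed the test. The log2 fold changes ran from 0.10 for Lamb1 to 0.48 for Lama5, with a median of 0.22, where the median of all tested genes was 0.00496. Among all tested genes 51.5% had a log2 fold change above 0. A gene was called where the p of edgeR's quasi-likelihood test, adjusted by Benjamini-Hochberg over all tested genes, was under 0.05 and the log2 fold change exceeded 0.25 in size. By this rule 0 of the 10 were called. The background was as sparse, with 8 called genes or 0.0358% of those tested, of which 1 (0.00448%) was higher in Plxnb1-/-. At an unadjusted p below 0.05, 7 of the 10 passed, namely Lama2, Lama5, Lamb2, Dag1, Itga6, Itga7 and Itgb4, all higher in Plxnb1-/-. The background at that threshold was 13.7% of genes in either direction and 6.95% in the higher direction. DESeq2, the tool that the study's methods name, called 1 of the 10, Itgb4, where 335 genes or 1.50% were called over all genes and 0.690% in the higher direction. Every Plxnb1-/- library lay above every WT library for 4 of the 10, Lama2, Lamb2, Itga6 and Itgb4, against 9.30% of all tested genes. Since the RNA came from whole cultures, more SCs in a culture and more of an RNA per SC cannot be told apart here.

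**Figure D1:**
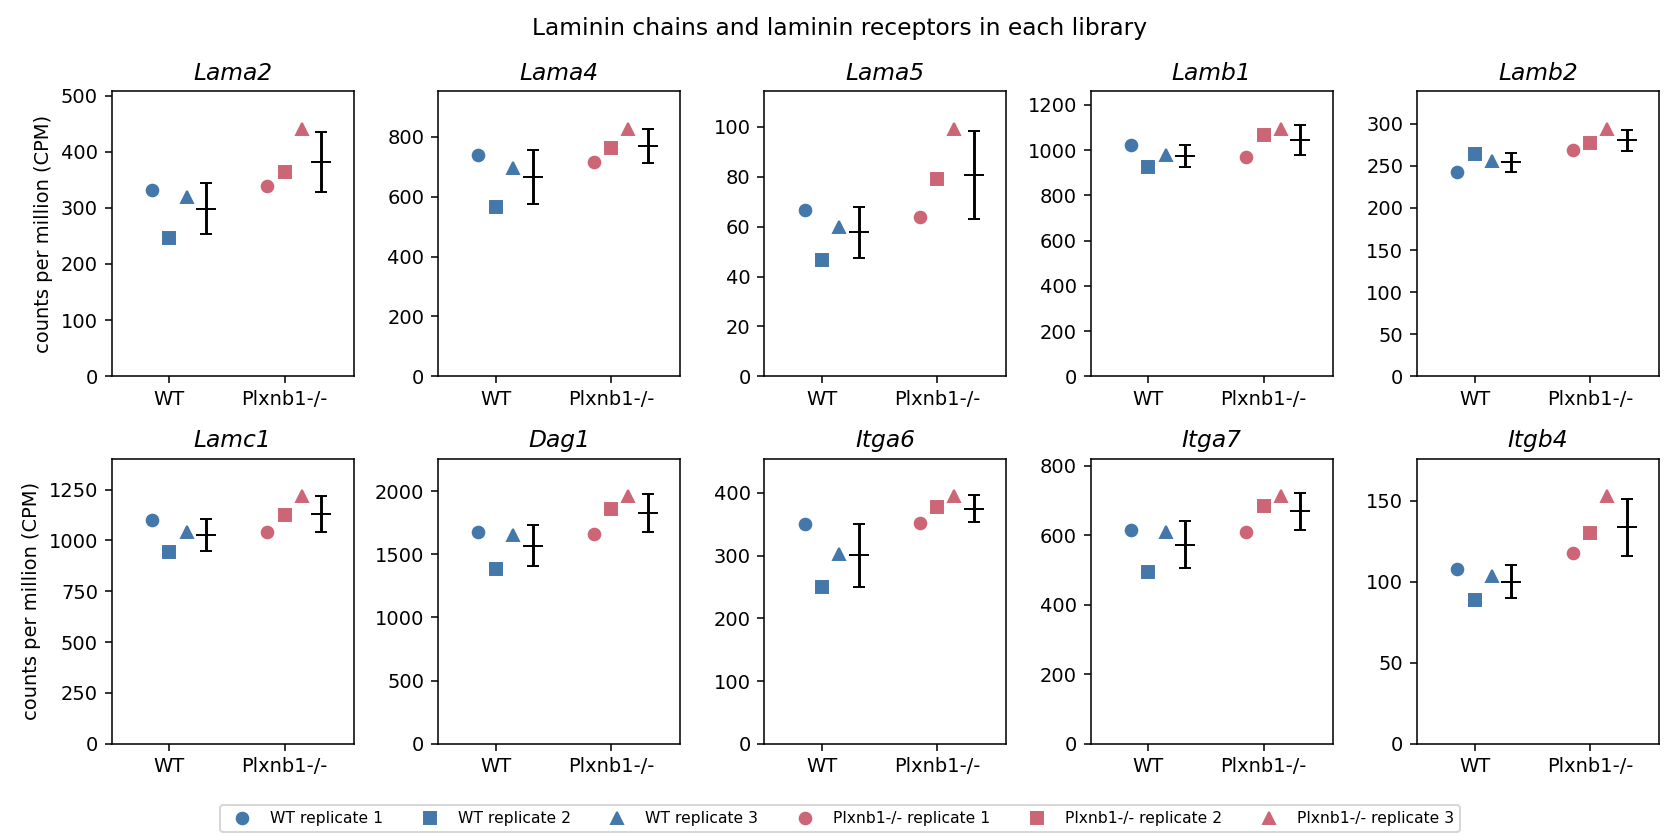
CPM of each of the 10 genes (vertical axis, starting at 0) in the 3 WT (blue) and 3 Plxnb1-/- (red) libraries, with the mean and SD of each genotype in black. Plxnb1-/- replicate 3 is the highest library in all 10 panels, WT replicate 2 is the lowest in 9, and the genotypes do not overlap for Lama2, Lamb2, Itga6 and Itgb4.

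Levels of different genes were compared as CPM per kilobase of merged exons. The aligner that the authors used does not span introns, and whether reads lost at exon junctions alter the order of genes was not tested. Merged exons take in every annotated exon of a gene, so their length can exceed that of the transcript in the cells. The order of genes and the shares of chains below hold for this length alone, and other lengths were not tested. Among the laminin chains of WT SCs, the gamma chain gene Lamc1 was highest at 124 ± 9.59 CPM per kilobase (SD, n = 3), followed by the beta chain gene Lamb1 at 98.3 ± 4.82. The alpha chain gene Lama4 was next at 55.2 ± 7.48, ahead of Lamb2 at 41.8 ± 1.81. Lama2 followed at 18.3 ± 2.81 and Lama5 was lowest at 5.07 ± 0.897 CPM per kilobase. The order was the same in Plxnb1-/- SCs, from Lamc1 at 136 ± 10.5 down to Lama5 at 7.10 ± 1.55 CPM per kilobase. In both genotypes the libraries of each gene lay wholly above those of the next gene in the order. Among the receptors, Dag1 was at 247 ± 25.7 CPM per kilobase in WT SCs and Itga7 at 70.9 ± 8.46. Itga6 was at 33.3 ± 5.57 and Itgb4 at 14.2 ± 1.45 CPM per kilobase. This order too was the same in Plxnb1-/- SCs, with no overlap between neighbours.

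**Figure D2:**
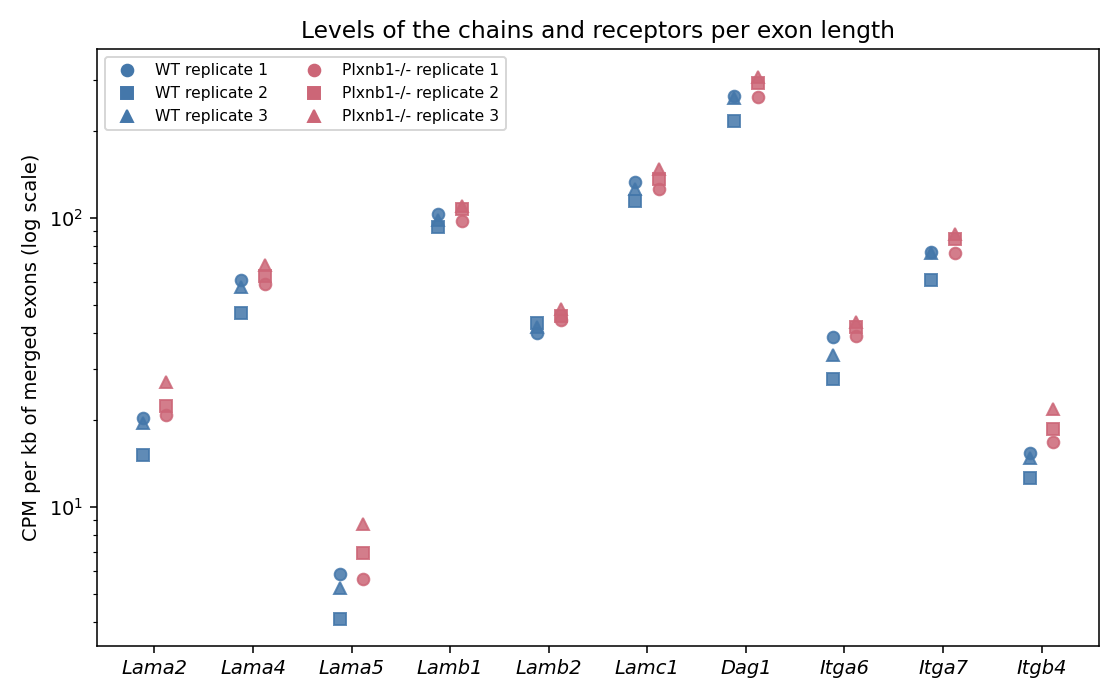
CPM per kilobase of merged exons on a logarithmic axis for the 6 laminin chain genes and 4 receptor genes, with 1 point per library. Dag1 is the highest of the 10 and Lama5 the lowest in every library.

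Lama2 (ENSMUSG00000019899, chr10:26980036-27619758 on the minus strand, GRCm38) encodes the alpha chain of the main laminin of the SC basement membrane, whose loss causes muscular dystrophy with a neuropathy. It was at 331, 246 and 319 CPM in WT replicates 1, 2 and 3 and at 339, 364 and 441 CPM in Plxnb1-/- replicates 1, 2 and 3. The genotypes did not overlap, but WT replicate 1 and Plxnb1-/- replicate 1 were close. The means were 299 ± 45.8 and 382 ± 53.0 CPM, a log2 fold change of 0.35 (SE 0.12, edgeR adjusted p = 0.296, DESeq2 adjusted p = 0.0782). The exons of Lama2 overlap those of the antisense gene Gm48084 over 3.86% of their length, and the strand setting of the counting is not given in the sources used here. Gm48084 itself was at 3.66 to 6.81 CPM.

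Lama4 (ENSMUSG00000019846, chr10:38965515-39110188 on the plus strand) encodes an alpha chain found in the endoneurium and in blood vessels. It was at 738, 565 and 696 CPM in the WT replicates and at 715, 763 and 828 CPM in the Plxnb1-/- replicates. The genotypes overlapped, since WT replicate 1 lay above Plxnb1-/- replicate 1. The log2 fold change was 0.21 (SE 0.09, edgeR adjusted p = 0.380), with means of 666 ± 90.2 and 768 ± 56.5 CPM.

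Lama5 (ENSMUSG00000015647, chr2:180176373-180225859 on the minus strand) encodes a broadly expressed alpha chain that also occurs in the perineurium. It had the lowest level of the 10, with 66.9, 46.7 and 59.7 CPM in the WT replicates and 64.1, 79.1 and 99.3 CPM in the Plxnb1-/- replicates. Between 2736 and 6887 counts per library stood behind these values. WT replicate 1 lay above Plxnb1-/- replicate 1, while Plxnb1-/- replicate 3 stood well above the rest. This was the largest fold of the 10, with a log2 fold change of 0.48, and also the one with the widest error (SE 0.16, edgeR adjusted p = 0.294, DESeq2 adjusted p = 0.269). Without Plxnb1-/- replicate 3 the log2 fold change was 0.31.

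Of the alpha chain signal from Lama2, Lama4 and Lama5 per kilobase, Lama4 held 70.3% ± 0.54 in WT SCs, Lama2 23.2% ± 0.416 and Lama5 6.44% ± 0.262 (SD, n = 3). In Plxnb1-/- SCs the shares were 67.8% ± 1.79, 24.8% ± 0.98 and 7.48% ± 0.897. The share of Lama4 was lower in each Plxnb1-/- library (69.2%, 68.4% and 65.8%) than in each WT library (70.1%, 70.9% and 70.0%). With Lama1, described below, counted among the alpha chains, the share of Lama4 was 67.3%, 61.3% and 65.2% in the WT and 65.8%, 65.4% and 63.0% in the Plxnb1-/- libraries, which overlapped. Since the shares sum to the whole, they are not separate results.

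Lamb1 (ENSMUSG00000002900, chr12:31265234-31329644 on the plus strand) and Lamb2 (ENSMUSG00000052911, chr9:108479736-108490530 on the plus strand) encode the beta chains, the former the common one in the endoneurium and the latter best known from synapses, kidney and also SCs. Lamb1 was at 1021, 925 and 978 CPM in the WT replicates and at 971, 1068 and 1095 CPM in the Plxnb1-/- replicates. Plxnb1-/- replicate 1 lay within the WT range, and the log2 fold change of 0.10 (SE 0.06, edgeR adjusted p = 0.483) was the smallest of the 10. Lamb2 was at 242, 264 and 256 CPM in the WT replicates and at 269, 277 and 294 CPM in the Plxnb1-/- replicates. Here the genotypes did not overlap, and Lamb2 was the only one of the 10 for which WT replicate 2 was not the lowest library. Its spread was small and so was its fold, with means of 254 ± 11.0 and 280.1 ± 13.0 CPM and a log2 fold change of 0.14 (SE 0.05, edgeR adjusted p = 0.305), which lies under the cutoff of 0.25. Lamb1 made up 70.2% of the signal of both beta chains per kilobase in WT and 69.6% in Plxnb1-/- SCs.

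Lamc1 (ENSMUSG00000026478, chr1:153218922-153332786 on the minus strand) encodes the gamma chain shared by nearly all SC laminins, and its deletion in SCs removes them. It was at 1101, 944 and 1039 CPM in the WT replicates and at 1043, 1126 and 1218 CPM in the Plxnb1-/- replicates. WT replicate 1 lay above Plxnb1-/- replicate 1, so the genotypes overlapped. The log2 fold change was 0.14 (SE 0.07, edgeR adjusted p = 0.440). The means were 1028 ± 79.3 and 1129 ± 87.3 CPM.

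Dag1 (ENSMUSG00000039952, chr9:108204634-108263958 on the minus strand) encodes dystroglycan, whose sugar chains bind laminin and whose other part links to dystrophin and utrophin inside the cell. It was at 1677, 1381 and 1649 CPM in the WT replicates and at 1660.5, 1858 and 1961 CPM in the Plxnb1-/- replicates. Plxnb1-/- replicate 1 lay between the WT values. The means were 1569 ± 163 and 1826 ± 153 CPM, a log2 fold change of 0.22 (SE 0.08, edgeR adjusted p = 0.324, DESeq2 adjusted p = 0.164).

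Itga6 (ENSMUSG00000027111, chr2:71745616-71858416 on the plus strand) encodes the integrin subunit that SCs carry at every stage. Its WT replicates were at 350.2, 249.8 and 302 CPM and its Plxnb1-/- replicates at 353, 377 and 395 CPM. The genotypes did not overlap, by a margin of less than 1% between WT replicate 1 and Plxnb1-/- replicate 1. The spread was wider in WT (301 ± 50.2 CPM) than in Plxnb1-/- SCs (375 ± 21.2 CPM), and the log2 fold change was 0.32 (SE 0.11, edgeR adjusted p = 0.293, DESeq2 adjusted p = 0.0759).

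Itga7 (ENSMUSG00000025348, chr10:128933818-128958282 on the plus strand) encodes an alpha subunit that appears as SCs myelinate and is also prominent in muscle. Its WT replicates were at 616, 495 and 609.7 CPM and its Plxnb1-/- replicates at 609.6, 684 and 713 CPM. Plxnb1-/- replicate 1 was level with WT replicate 3, so the genotypes overlapped. The log2 fold change was 0.22 (SE 0.09, edgeR adjusted p = 0.338), with means of 574 ± 68.4 and 669 ± 53.3 CPM. The exons of Itga7 share 9 bases with those of Mettl7b on the other strand.

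Itgb4 (ENSMUSG00000020758, chr11:115974709-116008412 on the plus strand) encodes the integrin subunit that marks the outer surface of myelinating SCs and is known to depend on contact with axons. It was at 108, 88.5 and 104 CPM in the WT replicates and at 118, 130.0 and 153 CPM in the Plxnb1-/- replicates. Every Plxnb1-/- library lay above every WT library, and Plxnb1-/- replicate 3 stood apart from the other 2. The means were 99.95 ± 10.1 and 133 ± 17.8 CPM, which is 33.5% higher in the fit. The log2 fold change was 0.42 (SE 0.10), with an edgeR adjusted p of 0.266 and a DESeq2 adjusted p of 0.00706. edgeR called it as well when the filter on low counts was left out (1 of the 10, against 296 of 31191 genes or 0.949%). DESeq2's call was lost without Plxnb1-/- replicate 2 (log2 fold change 0.44, DESeq2 adjusted p = 0.0699) and without Plxnb1-/- replicate 3 (0.31, DESeq2 adjusted p = 0.241). It was kept without each of the other 4 libraries, with a DESeq2 adjusted p between 0.00164 and 0.0406. The exons of Itgb4 overlap those of a long noncoding gene on the other strand, B230344G16Rik, over 7.66% of their length, and that gene was not analysed here.

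Promoter sequences are shown to let a reader see what stands before the start of genes that lay higher together. The RefSeq table used here (GRCm38.p6) held promoters for 5 of the 10 genes, Lama2, Lama5, Lamb1, Lamb2 and Dag1, and the 250 bases before the start were searched on both strands for GGAATG (TEAD factors), ACAANG (SOX factors) and GGGCGG (the GC box). Windows that touch no annotated exon are given for 3 of them, with matches in capitals. The window of Lama2 lies at chr10:27616943-27617192 on the minus strand, inside the annotated span of the gene. That of Lama5 lies at chr2:180225860-180226109 and the first listed of Dag1 at chr9:108263959-108264208, both on the minus strand.
Lama2: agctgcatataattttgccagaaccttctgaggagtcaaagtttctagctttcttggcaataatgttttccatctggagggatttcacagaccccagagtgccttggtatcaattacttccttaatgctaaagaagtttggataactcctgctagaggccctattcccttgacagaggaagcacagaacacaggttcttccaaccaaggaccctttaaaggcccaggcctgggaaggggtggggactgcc
Lama5: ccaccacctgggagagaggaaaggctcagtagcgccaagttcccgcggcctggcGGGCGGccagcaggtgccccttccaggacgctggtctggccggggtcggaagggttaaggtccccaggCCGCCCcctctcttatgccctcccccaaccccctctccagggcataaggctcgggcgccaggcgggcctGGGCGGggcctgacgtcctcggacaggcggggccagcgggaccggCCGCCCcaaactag
Dag1: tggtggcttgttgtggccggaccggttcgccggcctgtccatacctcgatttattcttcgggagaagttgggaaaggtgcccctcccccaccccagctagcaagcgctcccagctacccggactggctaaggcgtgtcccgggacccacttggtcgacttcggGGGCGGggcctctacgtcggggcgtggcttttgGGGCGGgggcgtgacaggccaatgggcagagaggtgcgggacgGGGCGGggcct
No match to the 3 motifs was found in the window of Lama2, which had 47.2% G and C. The window of Lama5 held 4 GC boxes at 72.4% G and C, and that of Dag1 held 3 at 67.6%. Among the windows not printed, that of Lamb1 held 2 GC boxes and that of Lamb2 no match to any of the 3. Over all 27025 promoters of the table, 32.9% held a GC box, 36.6% the SOX letters and 12.6% the TEAD letters, and none of the 5 windows held either of the last pair. A match is a run of letters and not a shown binding site.

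The order of the libraries was much alike across the 10 genes. Plxnb1-/- replicate 3 was the highest of the 6 libraries for 10 of 10 genes, against 20.4% of all tested genes, and WT replicate 2 was the lowest for 9 of 10, against 27.0%. Both held together for 9 of 10, against 10.9% of all. These are the 2 libraries that stood apart above. Without WT replicate 2, all 10 log2 fold changes were above 0 and ran from 0.07 to 0.36, with a median of 0.16, and Lama4 was then at 0.10 and Itga7 at 0.13. Without Plxnb1-/- replicate 3 they ran from 0.06 to 0.31, with a median of 0.17. With both left out they ran from 0.02 to 0.23, again all above 0, with a median of 0.10. The edgeR adjusted p values of the 10 genes were then between 0.402 and 0.988. An unadjusted edgeR p below 0.05 was found for 4 of the 10, against 3.05% of all tested genes in the higher direction. The genotypes did not overlap in that direction for 4 of the 10, against 16.6%. Since these were the lowest and the highest library for 9 of 10 genes, leaving both out had to lower those folds, whatever the cause.

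**Figure D3:**
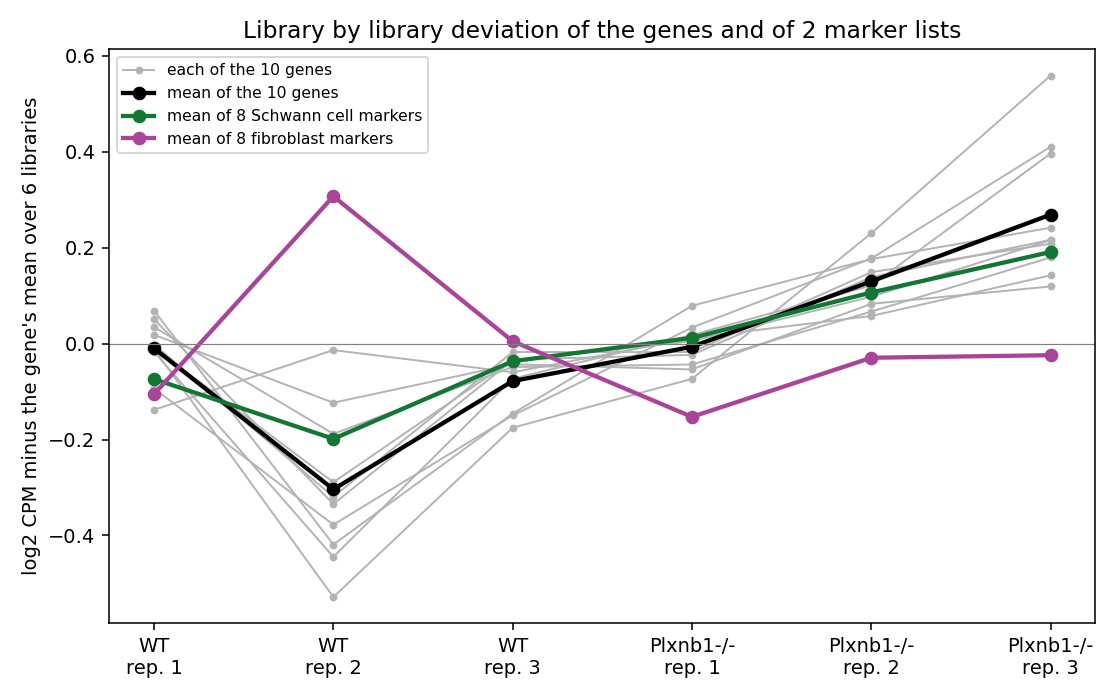
Log2 CPM of each of the 10 genes minus the gene's mean over the 6 libraries (grey), with the mean of the 10 (black), of 8 SC markers (green) and of 8 fibroblast markers (purple); lines only join the values of 1 gene or list. WT replicate 2 is the low point of the mean of the 10 genes and of the SC markers and the high point of the fibroblast markers, and Plxnb1-/- replicate 3 is the high point of the 10 genes and of their mean.

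SC markers moved with the laminins and their receptors. All 8 SC markers, among them Sox10, S100b, Erbb3, Cdh19, Ngfr and Gap43, had a log2 fold change above 0, with a median of 0.21, from 0.02 for the calcium-binding protein gene S100b to 0.30 for the neurotrophin receptor gene Ngfr. Their summed level was 2546, 2190 and 2604 CPM in the WT replicates and 2650, 2924 and 2996 CPM in the Plxnb1-/- replicates. An unadjusted edgeR p below 0.05 was found for 6 of the 8, against 6.95% of all tested genes in the higher direction. None of the 8 was called by edgeR or DESeq2. Of the 8 fibroblast markers, 7 had a log2 fold change below 0, with a median of -0.13, and the 1 above 0 was the matrix proteoglycan gene Lum at 0.08. Thy1, the surface antigen used to deplete fibroblasts, was lowest at -0.39 (edgeR adjusted p = 0.293). Every Plxnb1-/- library lay below every WT library for 4 of these 8, against 10.4% of all genes. Their summed level was 11001, 13467 and 11476 CPM in WT and 10163, 10740 and 10623 CPM in Plxnb1-/- libraries, most of it Col1a2 and Col3a1.

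The 10 genes were then set against the SC markers. Relative to the mean log2 CPM of the 8 markers, which was 0.21 higher in Plxnb1-/-, 7 of the 10 lay above 0 and 3 changed sign. The 3 that changed sign were Lamb1 at -0.11, Lamb2 at -0.065 and Lamc1 at -0.071 on the log2 scale. Lama4, Dag1 and Itga7 were near 0, at 0.01, 0.01 and 0.02. Lama2 was at 0.15, Itga6 at 0.12 and Lama5 at 0.27, each with overlap between the genotypes. Itgb4 was at 0.21 and was the only one of the 10 in which every Plxnb1-/- library still lay above every WT library. Lamb1 lay apart the other way, with every Plxnb1-/- library below every WT library. For both genes an exact permutation of the genotypes gave p = 0.1, or 0.5 adjusted over the 10 genes. With 3 libraries a genotype, 0.1 is the smallest p possible. The share of all tested genes without overlap on this scale was not computed. Whether the share of SCs in a culture had a part in the differences was not tested, and the markers may themselves differ between the genotypes.

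**Figure D4:**
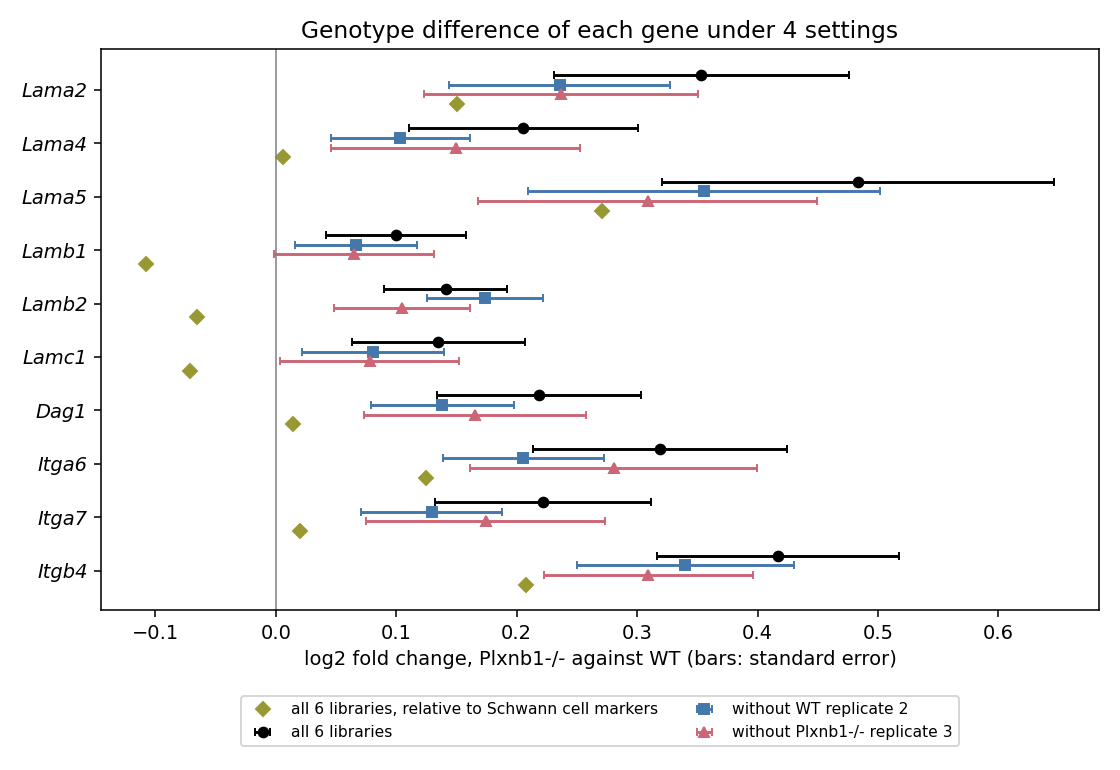
Log2 fold change of Plxnb1-/- against WT for each gene with all 6 libraries (black), without WT replicate 2 (blue), without Plxnb1-/- replicate 3 (red), each with its SE, and relative to the mean of 8 SC markers (olive, no error drawn). All black, blue and red points lie above 0, and Lamb1, Lamb2 and Lamc1 fall below 0 relative to the markers.

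Ratios within a library do not depend on the library's size, and 6 pairs of genes were compared by exact permutation of the genotypes, two-sided. With 3 libraries a genotype such a test cannot give a p under 0.1. The log2 ratio of Lama4 to Lama2 was 1.16, 1.20 and 1.13 in the WT replicates and 1.08, 1.07 and 0.91 in the Plxnb1-/- replicates. The genotypes did not overlap, with a difference of -0.14 (exact permutation p = 0.1, adjusted over the 6 pairs 0.45). Dag1 to Lama2 differed by -0.14 as well, with overlap (exact permutation p = 0.2, adjusted 0.45). Lama5 to Lama2 differed by 0.12 (exact permutation p = 0.3, adjusted 0.45). Itga7 to Itga6 differed by -0.10 (exact permutation p = 0.3, adjusted 0.45) and Itgb4 to Itga6 by 0.08 (exact permutation p = 0.5, adjusted 0.6). The ratio of the beta chains Lamb2 to Lamb1 differed by 0.04 (exact permutation p = 0.8, adjusted 0.8), less than the SD of 0.13 among the WT libraries. None of the 6 could be shown to differ at this size.

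**Figure D5:**
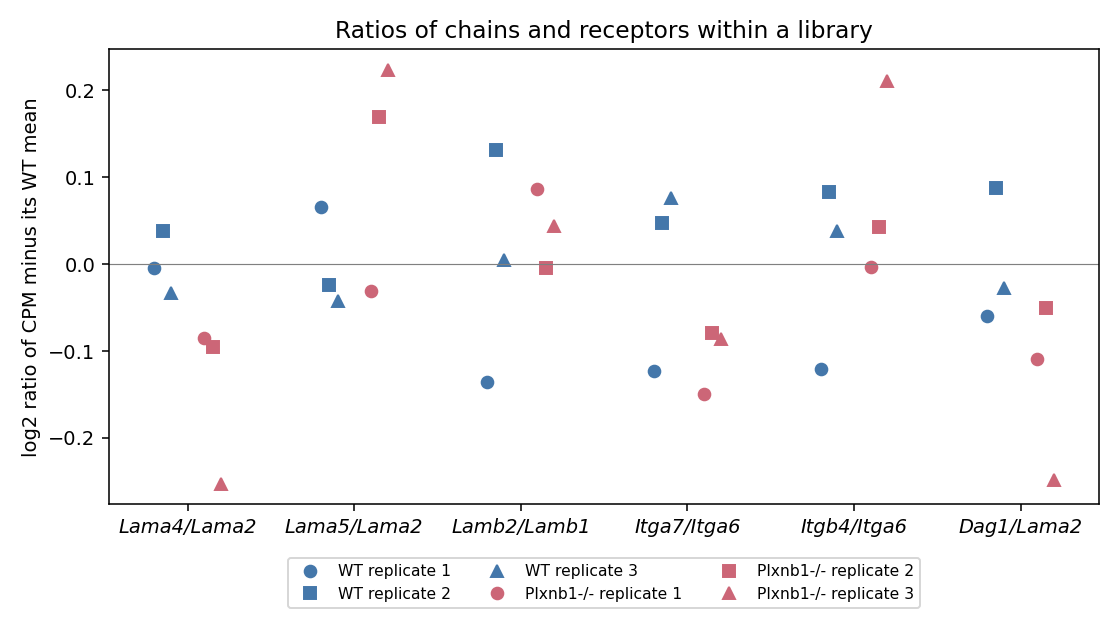
Log2 ratio of CPM of 6 pairs of genes in each library, with the WT mean of each pair set to 0. The genotypes lie apart for Lama4 to Lama2 alone, and overlap for the other 5 pairs.

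The laminin chains outside the 10 went the other way in most cases. Of Lama1, Lama3, Lamb3 and Lamc3, 3 of 4 had a log2 fold change below 0, and none was called by edgeR or DESeq2. Lama1, which encodes the alpha chain of early embryonic basement membranes, was the 1 with a sizeable level. It was at 35.2, 100.3 and 58.9 CPM in the WT replicates and at 42.5, 40.4 and 44.8 CPM in the Plxnb1-/- replicates. WT replicate 2, the library highest in fibroblast markers, was also highest for Lama1 and lowest for Lama2, Lama4 and Lama5. Its log2 fold change was -0.60 (SE 0.29, edgeR adjusted p = 0.399), and it made up 8.14% ± 4.91 of the alpha chain signal per kilobase in WT and 4.48% ± 0.340 in Plxnb1-/- SCs. Lama3 lay between 0.221 and 0.703 CPM with a log2 fold change of -0.33. Lamb3 was at 0.0937, 0.137 and 0.226 CPM in the WT replicates and at 0.0511, 0.0828 and 0 CPM in the Plxnb1-/- replicates, too near the floor for a fold. Lamc3 differed by 0.11 on the log2 scale.

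Other laminin receptors did not lie to 1 side, with 3 of 5 above 0 and a median log2 fold change of 0.17. Itgb1, the beta subunit that pairs with the products of Itga6 and Itga7, was at 1705, 1677 and 1639 CPM in the WT replicates and at 1669, 1602 and 1654 CPM in the Plxnb1-/- replicates, a log2 fold change of -0.03 (SE 0.04, edgeR adjusted p = 0.809). Its libraries overlapped and had little spread. The integrin subunit gene Itga3 differed by 0.19, the Lutheran blood group antigen Bcam by 0.30, and Adgrg6, the receptor required for SC myelination, by 0.17. Rpsa differed by -0.10, and its counts are uncertain, because it has near-identical copies in the genome. Every Plxnb1-/- library lay above every WT library for 2 of the 5, Bcam and Adgrg6, against 9.30% of all tested genes, and none of the 5 was called.

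Genes of the dystrophin-glycoprotein complex, through which dystroglycan is joined to the cytoskeleton, were all on the higher side. Of the 16 listed, 14 were tested, and 14 of 14 had a log2 fold change above 0, with a median of 0.12. For 5 of the 14 the Plxnb1-/- libraries lay wholly above the WT libraries, against 9.30% of all tested genes. Prx, which encodes the myelin sheath protein periaxin, joined to dystroglycan through the product of Drp2, was highest. It was at 77.9, 65.2 and 85.4 CPM in the WT replicates and at 93.5, 133 and 139.9 CPM in the Plxnb1-/- replicates, which did not overlap. Its log2 fold change was 0.68 (SE 0.15, edgeR adjusted p = 0.266, DESeq2 adjusted p = 0.000232), so DESeq2 called it and edgeR did not. At the other end was the dystrobrevin gene Dtnb at 0.03.

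The enzymes that build the laminin-binding sugar of dystroglycan were spread around 0. Of 17 listed, 16 were tested, 10 above 0 and 6 below, with a median log2 fold change of 0.00293, and none was called. The xylosyltransferase gene Rxylt1 was lowest at -0.14. The 11 integrin partners and adaptors were also split, 5 above and 6 below 0 with a median of -1.31e-05, from the plakin gene Dst at 0.23 to the focal adhesion kinase gene Ptk2 at -0.11. For 3 of these 11 the genotypes lay wholly apart, in 1 direction or the other, against 19.7% of all genes. Among the proteins that link laminin into the basement membrane, the nidogen genes Nid1 and Nid2 differed by 0.02 and 0.11, the agrin gene Agrn by 0.18 and the perlecan gene Hspg2 by 0.25 on the log2 scale. Ntn4, a netrin that disrupts laminin networks, differed by -0.19, and the median was 0.11. None of these 5 had an unadjusted edgeR p below 0.05.

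Markers of other cells that the cultures could hold were measured in the same way, and no member of these lists was called by edgeR or DESeq2. All 6 macrophage markers were above 0, from Cd68 at 0.13 to Aif1 at 0.71, at a summed 32.4 to 36.6 CPM in WT and 37.2 to 43.2 CPM in Plxnb1-/- libraries. All 6 neuron markers were above 0, from Tubb3 at 0.12 to Isl1 at 1.43, the latter at 0.0312 to 0.473 CPM and so partly under the floor. Their summed level was 140.3 to 155 CPM in WT and 157 to 174 CPM in Plxnb1-/- libraries, most of it Tubb3. The 4 satellite glia markers were above 0 as well, with Glul at 0.02, Fabp7 at 0.06, Kcnj10 at 0.16 and Slc1a3 at 0.71, at a summed 763 to 883 CPM in WT and 907 to 934 CPM in Plxnb1-/- libraries. Of 6 endothelial markers 5 were below 0, from Cldn5 at -1.28, near the floor, to Emcn at 0.04, at a summed 64.2 to 84.2 CPM in WT and 67.6 to 73.4 CPM in Plxnb1-/- libraries. The 7 mural markers ran from Des at -0.41 to Myh11 at 0.21, with 4 above 0, at a summed 1059.5 to 1333 CPM in WT and 1037 to 1083 CPM in Plxnb1-/- libraries. Of 5 tested perineurial markers 2 were above 0, from Mpzl2 at -0.14 to Krt23 at 0.74, at a summed 112 to 129 CPM in WT and 108 to 116 CPM in Plxnb1-/- libraries, and the untested Lypd2 had 0 counts throughout. The summed macrophage, neuron and satellite glia markers were each higher in every Plxnb1-/- library than in every WT library, and the sums of the other 3 lists overlapped between the genotypes. Most of the satellite glia sum was Kcnj10, at 638.5 to 752 CPM in WT and 772 to 798 CPM in Plxnb1-/- libraries. Kcnj10 and Slc1a3 did not overlap between the genotypes, while Fabp7 and Glul did. The part of such other cells in the levels of the laminins and receptors was not tested.

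Lamb2 and Dag1 lie near the targeted gene on chromosome 9, at 0.605 Mb and 0.831 Mb from Plxnb1 (chr9:109095389-109119917). Of 269 other tested genes within 10 Mb of Plxnb1, 45.0% had a log2 fold change above 0 and 10.0% did not overlap in the higher direction, against 51.5% and 9.30% of all tested genes. DESeq2 called 21 of these 269 genes, a larger share than the 335 (1.50%) of all 22318 tested. Of edgeR's 8 calls over all genes, 2 lay off chromosome 9. Neither Lamb2 nor Dag1 was called by edgeR or DESeq2. With chromosome 9 left out, the other 8 genes kept their signs and 0 of them were called by edgeR. Their own counts are the same in that fit, so it could hardly differ from the main one. The 3 tested genes whose library pattern was nearest to that of Itgb4, by the distance of centred log2 CPM over the 6 libraries, were Ppfia3 (distance 0.0860, log2 fold change 0.37), Tgfbr3 (0.0893, 0.46) and Art3 (0.0944, 0.47). DESeq2 called the latter pair, at an adjusted p of 0.00261 for Tgfbr3 and 0.0123 for Art3, and not Ppfia3 (DESeq2 adjusted p = 0.155). These genes were picked by their values in the same libraries, so folds near that of Itgb4 follow from the choice.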

How the data were processed

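Poly(A) RNA of 6 libraries of cultured mouse SCs, 3 per genotype as the labels give it, was sequenced by the authors. They trimmed reads (Trim Galore 0.6.5), aligned them to mm10 (Bowtie2 2.4.1, which does not span introns), removed duplicates (SAMtools 1.10) and counted reads per gene with featureCounts. The deposited table holds these raw counts. FPKM values were deposited as well, and the length behind them is the whole gene span in 99.45% or more of genes (tolerance 1%), so levels per length were computed here from counts and the merged exons of GENCODE vM21, to which 55141 genes matched by identifier.

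Genes were kept that had 2 or more counts in 5 or more libraries. They were tested with edgeR 4.0.16 in R 4.3.3 (TMM, quasi-likelihood, genotype alone in the model), with Benjamini-Hochberg adjustment over all 22318 tested genes. DESeq2 1.42.0 was the alternative test, and 7358 of its adjusted p values were NA. Further alternatives were DESeq2's size factors, other filters, a replicate block, chromosome 9 left out, log2(FPKM + 0.1), and each library left out. Both doubted libraries left out together, DESeq2 with libraries left out and levels relative to SC markers were added after seeing the data. In simulated counts over 21723 genes, of the 100 genes given a log2 change of 1 edgeR recovered 83 and DESeq2 87. Of 100 given a change of 0.5 edgeR recovered 56 and DESeq2 60. Unchanged genes called numbered 14 and 28. Python 3.11.15 with pandas 2.3.3 and SciPy 1.17.1 served for tables.

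The 10 genes, the lists and the tests were chosen with earlier results of these data known. Named genes are the 10, Plxnb1, the highest, lowest and called members of each list, all members of lists of 5 or fewer, and the 3 genes nearest to the member with the lowest p. Others named were chosen after their values were seen. Some genes that this rule names are not reported here. No sequencing reads were used.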

Additional observations from a re-analysis of the deposited data

How the results depend on the processing

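All 10 log2 fold changes kept their sign under each alternative run except relative to the SC markers, where Lamb1 (-0.11), Lamb2 (-0.065) and Lamc1 (-0.071) reversed. edgeR called 0 of the 10 with DESeq2's size factors, with its own filter on low counts, with the replicate block and with any library or both doubted libraries left out, and 0 of the 8 off chromosome 9 with that chromosome left out. 1 was called by DESeq2 and 1 by edgeR with no filter on low counts, in each case Itgb4. DESeq2 with a library left out called between 0 and 2, adding Itga6 without WT replicate 1 (log2 fold change 0.44, DESeq2 adjusted p = 0.000210) and Lama5 without Plxnb1-/- replicate 1 (0.62, DESeq2 adjusted p = 0.00734). Of the context lists edgeR called 0 genes, DESeq2 1 and edgeR with no filter 1, in both cases Prx, and DESeq2 with a library left out between 0 and 9. Over all genes, 8 calls became 335 with DESeq2, 296 with no filter, 5 with the replicate block, 33 without both doubted libraries and between 4 and 25 with 1 library left out, the 25 being without WT replicate 2. DESeq2 called 946, 162 and 219 genes without WT replicates 1, 2 and 3, and 281, 124 and 51 without Plxnb1-/- replicates 1, 2 and 3. With 1 library left out, the ratio of Lamb2 to Lamb1 ran from -0.025 without WT replicate 1, the 1 sign change, to 0.11 without WT replicate 2, and was 0.020 and 0.065 without Plxnb1-/- replicates 1 and 2. Without Plxnb1-/- replicate 3 the difference was -0.090 for Lama4 to Lama2, 0.069 for Lama5 to Lama2, 0.020 for Itgb4 to Itga6 and -0.080 for Dag1 to Lama2. Without Plxnb1-/- replicate 1 it was 0.20 for Lama5 to Lama2 and 0.13 for Itgb4 to Itga6, and without WT replicate 1 it was 0.023 for Itgb4 to Itga6 and -0.17 for Itga7 to Itga6. Itga7 to Itga6 was -0.067 without WT replicate 3. The cause of these shifts was not tested. Replicate numbers did not pair the libraries, with correlations of deviations of -0.0218, 0.00782 and 0.0653 for the same numbers, and not every library correlated best with its own number. In simulated counts edgeR recovered 56 of 100 genes changed by 0.5 log2 units, and smaller changes, such as those of all 10 genes, were not simulated. Lama5, the lowest of the 10, had at least 2736 counts in each library.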
